A study of Mus musculus with 24 samples.

Results

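Calcineurin is a phosphatase that calcium and calmodulin switch on, and its best known substrates are the NFATc transcription factors, which enter the nucleus once they are dephosphorylated. The RCAN proteins bind calcineurin and curb it. In skeletal muscle this pathway is known to carry the calcium signal of repeated contraction into gene expression, including that of slow-fiber genes, and Rcan1 is widely used as a readout of it because an internal start of the gene responds to NFAT. The genes described here are the 9 named for the pathway by symbol, of 56941 genes listed for the series. They are 2 RCAN genes (Rcan1, Rcan2), 4 NFATc genes (Nfatc1, Nfatc2, Nfatc3, Nfatc4), the calcineurin catalytic subunits Ppp3ca and Ppp3cb, and the regulatory subunit Ppp3r1. All 9 had a count in at least 1 library, and 8 passed the filter on low counts. Nfatc2 did not. An annotated gene on the opposite strand overlaps 7 of the 9, and how the counting used strand is not given in the sources used here. Those neighbors that are in the files had mean levels of at most 1.14 TPM.

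The tissues were monolayers of C2C12, a line of mouse muscle precursor cells that fuse to form contracting myotubes, here carrying the light-gated channel ChR2(H134R) joined to the red fluorescent protein tdTomato (genotype ChR2::tdTomato). Tissues in the 3 stimulated groups received blue light pulses at 1, 4, or 10 Hz for 60 min a day over about 2 weeks, and the Control group received none. There were 6 biological replicates of each of the 4 groups, or 24 libraries. All groups, Control included, carried the channel, grew on grooved fibrin gels, and were differentiated with the growth factor IGF-1 (50 ng/ml) and 10% horse serum, and the authors describe spontaneous twitching without light. All tissues thus come from 1 cell line, without nerve or blood vessels.

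Libraries held 8052369 to 18159144 estimated counts. The labelled cell type was checked by markers, and all 8 myotube markers were detected, with summed levels of 9802 to 16298 TPM (transcripts scaled to a common sum per library and divided by length), so the tissues held myotubes where the label reads myoblast. The 4 markers of undifferentiated myoblasts, none of them at 0, summed to 244 to 302 TPM in Control, 83.1 to 138 at 1 Hz, 69.9 to 113 at 4 Hz, and 215 to 271 at 10 Hz. That sum is mostly Myod1, with 193 TPM in Control. Pax7, Myod1, and Cdh15 were called lower at 1 and 4 Hz, while Myf5 was called higher, with means of 12.6 CPM in Control, 31.4 at 1 Hz, and 28.3 at 4 Hz. Markers of proliferating cells summed to 15.7 to 36.9 TPM. The macrophage list summed to 55.1 to 102 TPM, nearly all Cd68, with Ptprc and Adgre1 at 0 in most libraries. The neuron list summed to 21.7 to 98.0 TPM, nearly all Tubb3, which was called lower at 1 and 4 Hz (76.6 CPM in Control, 43.6 and 43.8 CPM), with Rbfox3 and Snap25 at 0 in most libraries. Endothelial markers summed to at most 0.326 TPM and T cell markers to at most 0.111 TPM. In 5 libraries (1 Hz replicates 4 and 6, and 4 Hz replicates 1, 3, and 4) genes with long transcripts read lower than in the controls. Their length slope was -0.19 to -0.27, and no other library was below -0.107. The slope is the change in log2 CPM (counts scaled to a common library size) relative to the control mean for each doubling of transcript length. Transcript length here comes from the ratio of a gene's estimated counts to its TPM and is not its span on the chromosome. The members are described with and without these 5 libraries, and calls of other pathway genes that were lost without them are named.

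The sequences upstream of the start sites are shown because NFAT proteins bind DNA around the core GGAAA and because 2 starts of Rcan1 are read together in a gene-level count. Entries among the promoters of RefSeq (build GRCm38.p6) were used for 7 of the 9 genes, and Nfatc1 was left out of this search. Each window here is the 250 bases before a start, 5′ to 3′ on the strand of the gene. Capitals mark GGAAA or its reverse complement TTTCC. No other motif was searched. Of all 32851 windows of the same length, 55.6% held at least 1 match.
Rcan1, outer start (chr16:92466170-92466419, minus strand): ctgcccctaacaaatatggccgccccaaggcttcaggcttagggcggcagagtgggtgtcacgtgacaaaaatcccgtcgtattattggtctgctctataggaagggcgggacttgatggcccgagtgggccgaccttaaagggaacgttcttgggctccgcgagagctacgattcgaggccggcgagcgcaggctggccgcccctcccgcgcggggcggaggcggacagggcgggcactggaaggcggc
Rcan1, internal start (chr16:92400079-92400328, minus strand): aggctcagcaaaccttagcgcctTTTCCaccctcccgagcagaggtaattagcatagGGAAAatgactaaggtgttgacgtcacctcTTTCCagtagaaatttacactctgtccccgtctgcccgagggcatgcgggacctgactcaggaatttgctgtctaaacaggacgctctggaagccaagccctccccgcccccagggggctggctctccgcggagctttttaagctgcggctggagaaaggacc
Rcan2, first start (chr17:43801102-43801351, plus strand): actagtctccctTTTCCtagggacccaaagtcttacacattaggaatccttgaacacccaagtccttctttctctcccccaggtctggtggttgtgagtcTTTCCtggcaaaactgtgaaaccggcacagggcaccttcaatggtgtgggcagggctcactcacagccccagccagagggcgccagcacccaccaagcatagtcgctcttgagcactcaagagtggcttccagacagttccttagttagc
Nfatc3, first start (chr8:106058568-106058817, plus strand): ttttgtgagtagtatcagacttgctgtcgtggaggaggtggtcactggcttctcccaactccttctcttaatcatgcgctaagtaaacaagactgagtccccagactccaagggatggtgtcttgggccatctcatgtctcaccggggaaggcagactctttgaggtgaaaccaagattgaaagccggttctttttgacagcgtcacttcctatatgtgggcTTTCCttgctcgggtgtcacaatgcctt
Nfatc4 (chr14:55824545-55824794, plus strand): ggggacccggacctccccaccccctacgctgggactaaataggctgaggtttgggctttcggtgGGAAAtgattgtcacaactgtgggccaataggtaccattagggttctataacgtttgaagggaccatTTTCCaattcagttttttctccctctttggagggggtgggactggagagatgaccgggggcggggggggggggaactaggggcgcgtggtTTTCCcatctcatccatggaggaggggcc
Ppp3r1 (chr11:17159048-17159297, plus strand): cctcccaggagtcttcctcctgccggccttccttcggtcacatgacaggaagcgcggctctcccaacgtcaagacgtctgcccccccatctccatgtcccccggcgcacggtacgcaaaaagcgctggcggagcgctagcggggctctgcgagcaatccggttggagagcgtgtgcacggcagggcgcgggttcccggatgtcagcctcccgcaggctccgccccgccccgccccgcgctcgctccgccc

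The window of the internal Rcan1 start held 3 matches and that of the outer start 0. Nfatc4 also had 3 matches, Rcan2 had 2, Nfatc3 had 1, and Ppp3r1 had 0. The 2 further windows of Rcan2 and the second of Nfatc3, not printed, held 0 each. At least 3 matches were found in 6.39% of all windows and at least 2 in 21.4%. Ppp3cb and the outer start of Nfatc2, also not printed, held 3 each, and the second start of Nfatc2 held 1. A match of these 5 letters describes the sequence and does not show a binding site, and 0 matches means only that these letters are not in the window.

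Each frequency was compared with Control by the quasi-likelihood test of edgeR on all 13315 genes that passed the filter, and a gene was called at a Benjamini-Hochberg adjusted p under 0.05. Levels are in CPM on the TMM scale of edgeR, means are given ± SD over 6 libraries, and log2(fold change) is the stimulated group minus Control with its standard error. At 1 Hz, 2 of the 8 tested members were upregulated (Rcan2, Nfatc4) and 1 was downregulated (Nfatc3), where 19.2% of all genes were called higher and 18.1% lower. At 4 Hz, 2 were upregulated (Rcan2, Nfatc4) and 3 were downregulated (Nfatc1, Nfatc3, Ppp3r1), beside 27.5% and 23.9% of all genes. The median log2(fold change) of the 8 was 0.02 at 1 Hz and -0.03 at 4 Hz, beside 0.04 and 0.06 over all genes. The counts of members are close to the share of all genes, and what follows is about the individual genes. At 10 Hz, edgeR and DESeq2 both called 0 of the 8, and 1, Nfatc4, had an unadjusted p under 0.05 in edgeR. Of all genes, 0.015% were called higher and 0.0225% lower at 10 Hz. The comparisons share their controls, so the values at 1 and 4 Hz are not independent of each other.

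**Figure D1:**
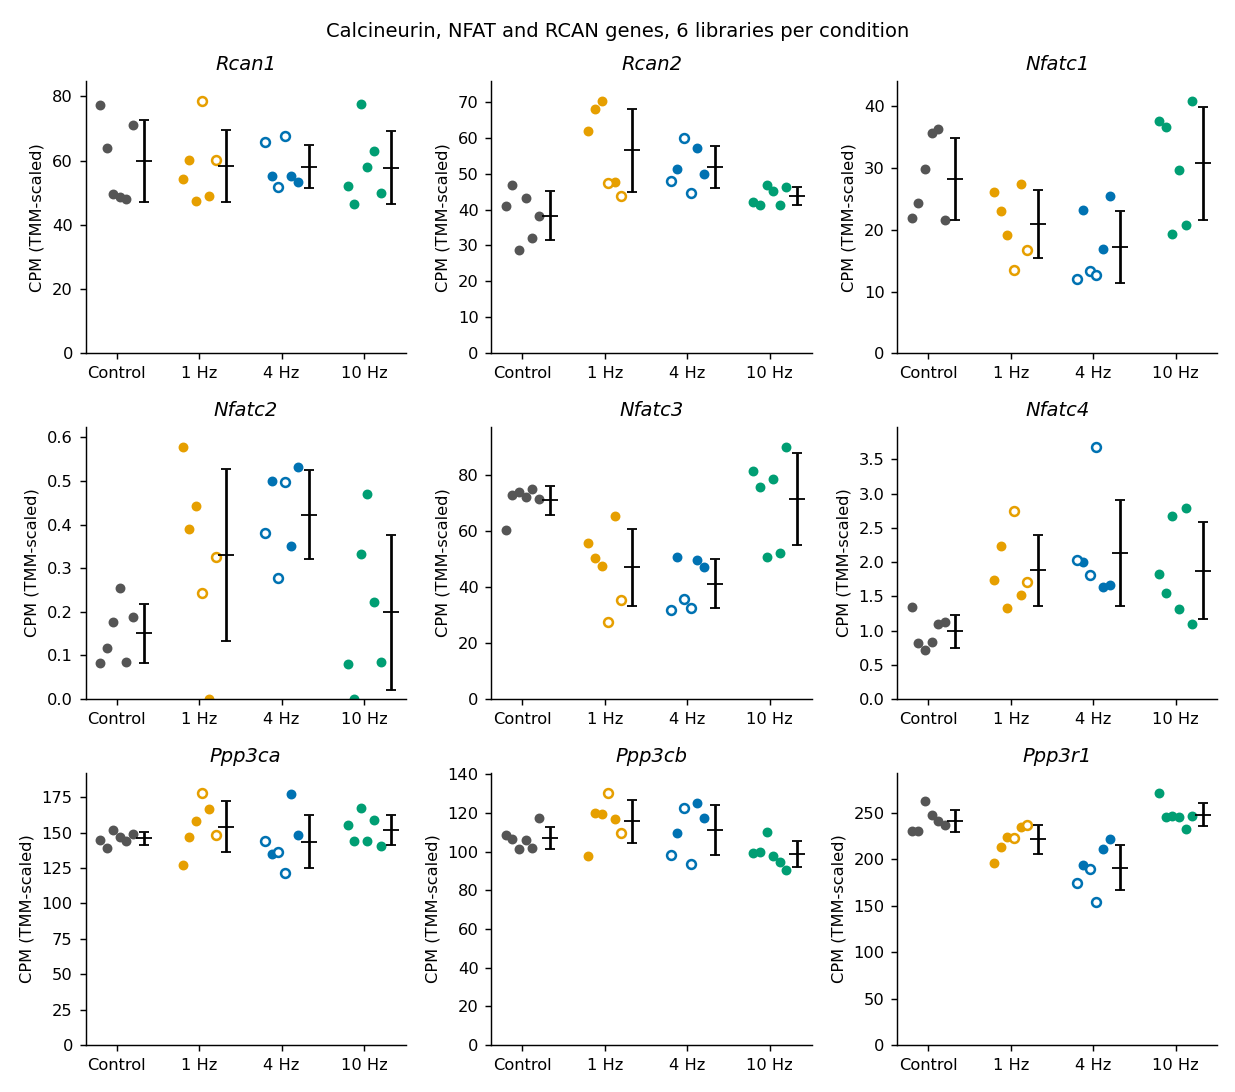
Level of each of the 9 genes (vertical axis, CPM on the TMM scale, from 0) in each library of Control, 1, 4, and 10 Hz (horizontal axis), with the mean and SD of 6 libraries drawn beside the points. Open circles are the 5 libraries with a length slope below -0.15. The mean of Rcan1 lies between 57.8 and 59.8 CPM in all groups, Rcan2 and Nfatc4 sit higher at 1 and 4 Hz, and Nfatc3 sits lower there and lowest in the open circles.

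Of the RCAN genes, Rcan2 rose at 1 and 4 Hz and Rcan1 did not pass the test at any frequency. Rcan1 (ENSMUSG00000022951, chromosome 16, 92188840 to 92267755 on the minus strand, build GRCm39) encodes the calcineurin regulator whose shorter form is induced by NFAT. Its lowest, median, and highest levels were 48.1, 56.8, and 77.4 CPM in Control, 47.6, 57.2, and 78.5 CPM at 1 Hz, 51.6, 55.2, and 67.6 CPM at 4 Hz, and 46.3, 54.9, and 77.6 CPM at 10 Hz. The 4 ranges overlap almost entirely. The Control mean was 59.8 ± 12.8 CPM, and the means at 1, 4, and 10 Hz were 58.3 ± 11.2, 58.1 ± 6.80, and 57.8 ± 11.4 CPM. The log2(fold change) was -0.03 (95% interval -0.31 to 0.25), -0.04 (-0.32 to 0.24), and -0.05 (-0.33 to 0.23) at 1, 4, and 10 Hz. The intervals leave room for smaller changes of either sign, and the values here sum both starts of the gene, so a shift from one Rcan1 transcript to the other would not be seen. Without the 5 libraries the log2(fold change) was -0.18 at 1 Hz and -0.16 at 4 Hz, with adjusted p of 0.36 and 0.45.

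Rcan2 (ENSMUSG00000039601, chromosome 17, 44112216 to 44350407 on the plus strand), a relative of Rcan1 that also binds calcineurin, had 28.6, 39.6, and 46.8 CPM as its lowest, median, and highest levels in Control. They were 43.7, 54.7, and 70.1 CPM at 1 Hz, 44.6, 50.7, and 60.0 CPM at 4 Hz, and 41.2, 43.6, and 46.7 CPM at 10 Hz. At both 1 and 4 Hz, 5 of the 6 libraries lay above every control, and at 10 Hz all 6 lay within the control range. The mean rose from 38.3 ± 6.84 CPM in Control to 56.4 ± 11.6 at 1 Hz (log2(fold change) 0.55, SE 0.118, adjusted p = 0.000774) and 51.8 ± 5.74 at 4 Hz (0.43, SE 0.119, adjusted p = 0.00404). At 10 Hz it was 43.7 ± 2.53 CPM (0.19, SE 0.119, adjusted p = 0.75). Compared directly, 10 Hz was lower than 1 Hz (-0.36, SE 0.119, adjusted p = 0.0247), and this call was lost without replicate 2 or 3 of 1 Hz or replicate 2 of 10 Hz, with a highest adjusted p of 0.0774. In the 19 other libraries the rise was 0.68 and 0.43, with adjusted p of 8.3e-05 and 0.00917. Of the 4 myoblast markers, 3 were lower and Myf5 was higher in the same 2 groups in which Rcan2 rose, and Tubb3 was lower there. In bulk libraries such as these, fewer cells of a type and less RNA per cell cannot be told apart, and the part of the markers in the members' results was not tested.

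The calls of Rcan2 against Control held in every fit of counts and were lost on the TPM scale, which also divides by the length of the transcripts estimated in each library. With limma on log2(TPM + 1), the log2(fold change) of Rcan2 was 0.28 at 1 Hz and 0.04 at 4 Hz, with adjusted p of 0.20 and 0.87. On that scale the median over all genes was -0.14 at 1 Hz and -0.21 at 4 Hz, so relative to the median gene Rcan2 stood at 0.42 and 0.25. Rcan1 was called lower there at 4 Hz, at -0.34 (adjusted p = 0.0416), or -0.13 relative to the median gene.

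Of the NFATc genes, Nfatc3 fell at 1 and 4 Hz, Nfatc1 fell at 4 Hz, Nfatc4 rose at 1 and 4 Hz from a low level, and Nfatc2 was at the limit of detection. Nfatc3 (ENSMUSG00000031902, chromosome 8, 106785472 to 106857175 on the plus strand) encodes the NFATc factor with the highest level here per transcript length, 19.0 ± 1.80 TPM in Control beside 9.73 ± 2.45 for Nfatc1. Its lowest, median, and highest levels were 60.6, 72.7, and 75.2 CPM in Control, 27.5, 49.0, and 65.6 CPM at 1 Hz, 31.8, 41.5, and 50.7 CPM at 4 Hz, and 50.8, 77.3, and 90.2 CPM at 10 Hz. At 1 Hz, 5 of 6 libraries lay below every control, and at 4 Hz all 6 did. The mean fell from 71.1 ± 5.29 CPM to 47.1 ± 13.8 at 1 Hz (log2(fold change) -0.60, SE 0.173, adjusted p = 0.00915) and to 41.3 ± 8.81 at 4 Hz (-0.78, SE 0.175, adjusted p = 0.000767). At 10 Hz it was 71.6 ± 16.3 CPM (0.01, SE 0.171, adjusted p = 0.995). Compared directly, 10 Hz was higher than 1 Hz (0.61, adjusted p = 0.0117) and higher than 4 Hz (0.79, adjusted p = 0.000931).

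**Figure D2:**
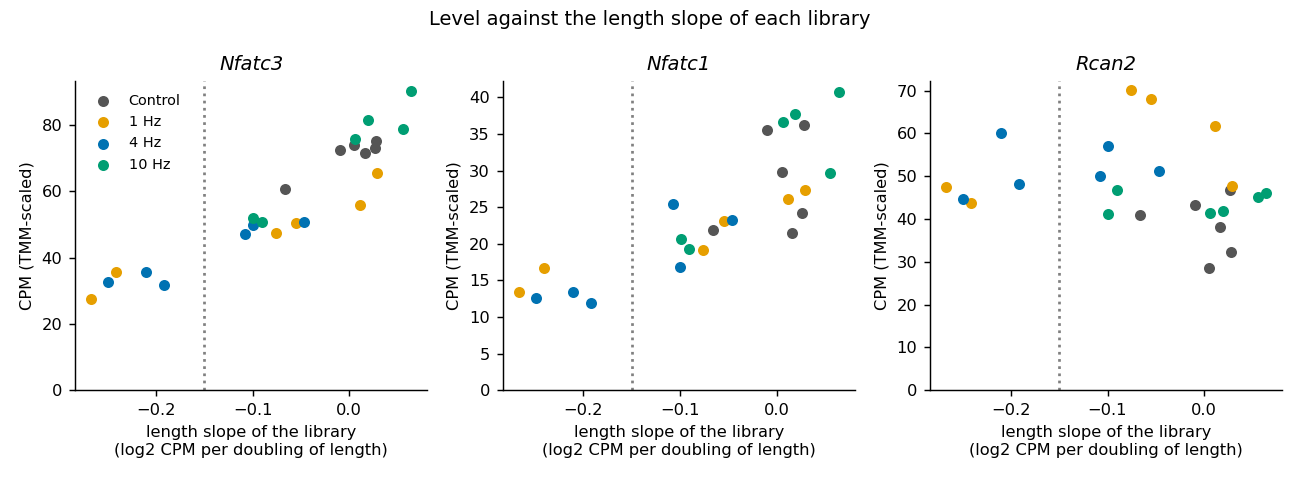
Level of Nfatc3, Nfatc1, and Rcan2 (vertical axes, CPM) against the length slope of each of the 24 libraries (horizontal axis, log2 CPM per doubling of transcript length), colored by group. The dotted line is at -0.15. The 5 libraries left of it hold the lowest levels of Nfatc3 (27.5 to 35.8 CPM) and of Nfatc1 (11.96 to 16.7 CPM), and do not stand apart for Rcan2.

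The transcript length of Nfatc3 was above that of 93.2% of the tested genes, and its level moved with the length slope of the library. The 5 libraries of steep slope had 27.5 to 35.8 CPM, and the other 19 had 47.1 to 90.2 CPM. With the 5 left out, the mean was 54.9 ± 7.96 CPM at 1 Hz (n = 4) and 49.2 ± 1.85 CPM at 4 Hz (n = 3), and Nfatc3 was still called lower (-0.37 and -0.56, with SE of 0.133 and 0.148 and adjusted p of 0.0364 and 0.00561). The call of 10 Hz above 1 Hz was lost (0.38, adjusted p = 0.050). The slopes of the groups were still not alike. The kept libraries at 4 Hz had slopes of -0.107 to -0.046, where the controls had -0.066 to 0.028. Replicates 3 and 5 of 10 Hz, with slopes of -0.091 and -0.099, had 50.8 and 52.1 CPM of Nfatc3. The kept 4 Hz libraries had 47.1 to 50.7 CPM. Within groups the Pearson r of Nfatc3 with the slope was 0.96. The part of the remaining slope in these calls was not tested. A correction for length in each library, fitted by lowess, gave -0.50 at 1 Hz and -0.62 at 4 Hz, with adjusted p of 0.000631 and 4.2e-05. Nfatc3 was also called lower at 1 and 4 Hz on the TPM scale, at -0.66 and -0.84 relative to the median gene.

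Nfatc1 (ENSMUSG00000033016), best known in muscle as the isoform that enters nuclei of slow fibers, had 21.5, 27.1, and 36.2 CPM as its lowest, median, and highest levels in Control. They were 13.4, 21.1, and 27.4 CPM at 1 Hz, 11.96, 15.1, and 25.4 CPM at 4 Hz, and 19.2, 33.2, and 40.8 CPM at 10 Hz. At 4 Hz, 4 of the 6 libraries lay below every control. The mean was 28.2 ± 6.66 CPM in Control and 17.2 ± 5.78 at 4 Hz (log2(fold change) -0.70, SE 0.226, adjusted p = 0.0130). At 1 Hz it was 21.0 ± 5.49 (-0.44, SE 0.222, adjusted p = 0.12) and at 10 Hz 30.8 ± 9.15 (0.13, SE 0.219, adjusted p = 0.96). Nfatc1 was higher at 10 Hz than at 4 Hz (0.83, adjusted p = 0.00515). Both calls were lost without the libraries of steep length slope, which had 11.96 to 16.7 CPM against 16.8 CPM or more in the other 19. Without them 4 Hz had 3 libraries. The change at 4 Hz was then -0.39 (SE 0.241, adjusted p = 0.22) and 10 Hz minus 4 Hz was 0.51 (adjusted p = 0.12). With all libraries, the call at 4 Hz against Control held after the length lowess. It also held with limma on log2(TPM + 1), at -0.91 (adjusted p = 0.0045), or -0.70 relative to the median gene.

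Nfatc4 (ENSMUSG00000023411, chromosome 14, 56060601 to 56071401 on the plus strand), a further NFATc factor, was rare, with 8 to 45 counts per library. Its lowest, median, and highest levels were 0.711, 0.964, and 1.34 CPM in Control, 1.33, 1.72, and 2.74 CPM at 1 Hz, 1.63, 1.90, and 3.68 CPM at 4 Hz, and 1.10, 1.69, and 2.80 CPM at 10 Hz. All 6 libraries at 4 Hz lay above every control, as did 5 at 1 Hz and 4 at 10 Hz. The mean rose from 0.987 ± 0.240 CPM to 1.88 ± 0.522 at 1 Hz (log2(fold change) 0.96, SE 0.262, adjusted p = 0.00580) and 2.14 ± 0.773 at 4 Hz (1.12, SE 0.264, adjusted p = 0.00103). At 10 Hz the mean was 1.88 ± 0.707 CPM, and the log2(fold change) of 0.92 (SE 0.266, 95% interval 0.37 to 1.46) did not pass after adjustment (adjusted p = 0.23). Compared directly, 10 Hz minus 1 Hz was -0.04 (95% interval -0.55 to 0.47) and 10 Hz minus 4 Hz was -0.21 (-0.73 to 0.31), and neither passed. With the 5 libraries left out, Nfatc4 was called higher with 0.79 at 1 Hz and 0.82 at 4 Hz (adjusted p of 0.0295 and 0.0324). The calls were lost when the transcript length estimated for the gene in each library entered the fit, at 0.54 (adjusted p = 0.30) and 0.78 (adjusted p = 0.11), and on the TPM scale, at 0.10 and 0.16.

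Nfatc2 (ENSMUSG00000027544, chromosome 2, 168318330 to 168443693 on the minus strand), the NFATc factor best known from T cells, had 0 to 7 counts per library. Summed over 6 libraries it had 12 counts in Control, 21 at 1 Hz, 25 at 4 Hz, and 12 at 10 Hz. At 4 Hz all 6 libraries, at 0.278 to 0.532 CPM, lay above every control, at 0.0838 to 0.255 CPM. It did not pass the filter, so edgeR gave no value for it. With no filter edgeR gave 1.399 at 4 Hz (adjusted p = 0.0612) and DESeq2 gave 1.47 (adjusted p = 0.0468), both from these few counts.

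The calcineurin subunits were the most abundant members, and 1 of the 3 changed from Control. The catalytic subunits Ppp3ca (ENSMUSG00000028161, chromosome 3, 136375445 to 136643491 on the plus strand) and Ppp3cb (ENSMUSG00000021816, chromosome 14, 20548406 to 20596668 on the minus strand) are alternative forms of the enzyme that carries the phosphatase activity. Ppp3ca had lowest, median, and highest levels of 138.9, 145.7, and 152.0 CPM in Control, 126.9, 153.4, and 178.2 CPM at 1 Hz, 121.3, 140.2, and 177.4 CPM at 4 Hz, and 140.6, 150.1, and 167.4 CPM at 10 Hz. The groups overlapped, and the libraries at 1 and 4 Hz were more widely spread than the controls. The log2(fold change) was 0.08 (95% interval -0.08 to 0.24), -0.02 (-0.19 to 0.14), and 0.06 (-0.11 to 0.22) at 1, 4, and 10 Hz.

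Ppp3cb had lowest, median, and highest levels of 101.7, 106.2, and 117.5 CPM in Control, 97.7, 118.2, and 130.5 CPM at 1 Hz, 93.8, 113.6, and 125.3 CPM at 4 Hz, and 90.3, 98.5, and 110.2 CPM at 10 Hz. It passed the test against Control at no frequency, with log2(fold change) of 0.11, 0.05, and -0.12 and adjusted p of 0.25, 0.57, and 0.76. At 10 Hz 5 of the 6 libraries lay below every control. Ppp3cb was lower at 10 Hz than at 1 Hz (-0.23, SE 0.076, adjusted p = 0.0262), a call that was lost without replicate 3 or 4 of 1 Hz or replicate 5 or 6 of 10 Hz, with a highest adjusted p of 0.0962. On the TPM scale both catalytic subunits were called lower at 4 Hz, Ppp3ca at -0.31 (adjusted p = 0.0231) and Ppp3cb at -0.27 (adjusted p = 0.0392, with its sign turned), which is -0.10 and -0.06 relative to the median gene.

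Ppp3r1 (ENSMUSG00000033953, chromosome 11, 17109192 to 17150382 on the plus strand) encodes the calcium-binding regulatory subunit of calcineurin and had the highest level of the 9 genes, 136.7 ± 11.2 TPM in Control. Its lowest, median, and highest levels were 230.9, 239.5, and 262.6 CPM in Control, 195.7, 224.2, and 237.3 CPM at 1 Hz, 154.6, 191.7, and 221.9 CPM at 4 Hz, and 232.7, 246.4, and 271.9 CPM at 10 Hz. All 6 libraries at 4 Hz lay below every control and below every library at 10 Hz. The mean fell from 241.9 ± 11.98 CPM to 191.0 ± 24.4 at 4 Hz (log2(fold change) -0.34, SE 0.0718, adjusted p = 0.000381). It was 221.5 ± 15.3 CPM at 1 Hz (-0.13, SE 0.0716, adjusted p = 0.17) and 248.3 ± 12.8 at 10 Hz (0.04, SE 0.0716, adjusted p = 0.96). Ppp3r1 was higher at 10 Hz than at 4 Hz (0.38, SE 0.0719, adjusted p = 0.000179). In the other 19 libraries it was still lower at 4 Hz (-0.24, SE 0.0711, adjusted p = 0.0119) and 10 Hz was still above 4 Hz (0.27, adjusted p = 0.00747). On the TPM scale it was called lower at 1 Hz as well (-0.34, adjusted p = 0.0335), at -0.19 relative to the median gene, and stood at -0.46 relative to it at 4 Hz. The absolute change at 4 Hz was under 0.5 on the log2 scale, the size the study used, and so was that of Rcan2.

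**Figure D3:**
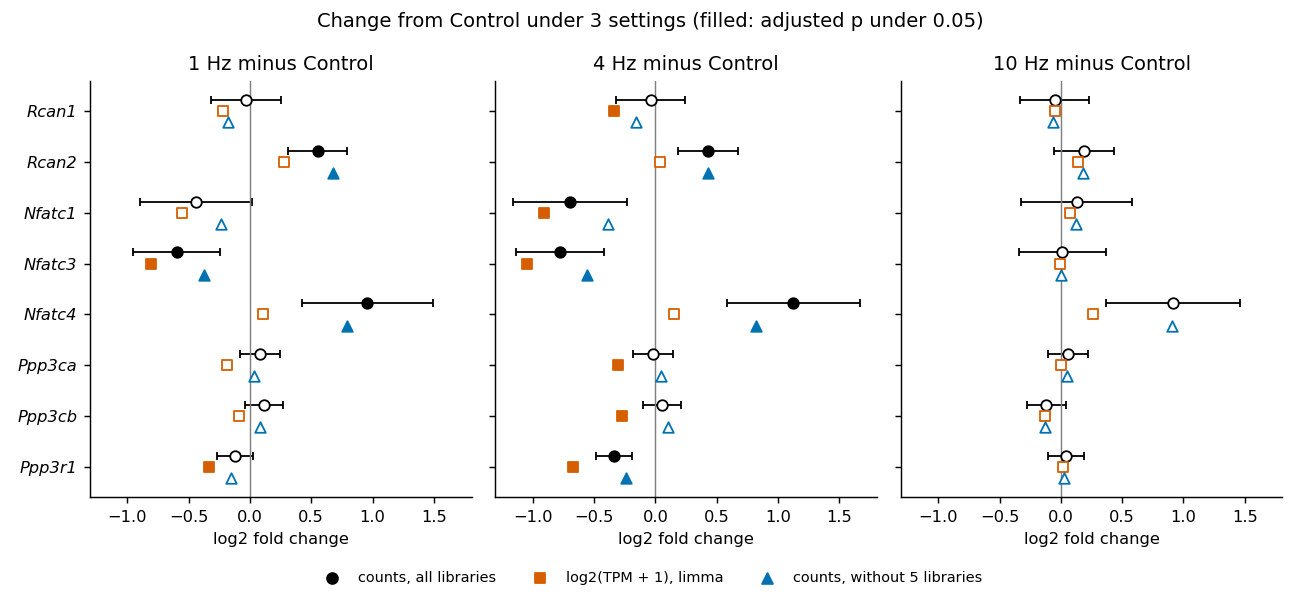
Change from Control of the 8 tested genes (horizontal axes, log2(fold change), one panel per frequency) under 3 settings. Circles are the fit of counts in all libraries with 95% intervals, squares are limma on log2(TPM + 1), and triangles are counts without the 5 libraries of steep length slope. Filled symbols have an adjusted p under 0.05. Nfatc3 is filled in all 3 settings at 1 and 4 Hz, Ppp3r1 at 4 Hz, and no symbol is filled at 10 Hz.

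All calls of members against Control held when any 1 library was left out. Nfatc3 kept an adjusted p of at most 0.0237 at 1 Hz and 0.00281 at 4 Hz, and Rcan2 of at most 0.00365 and 0.0190. At 4 Hz, 3 of the 8 tested members (Nfatc3, Nfatc4, Ppp3r1) had all 6 libraries outside the range of the controls, where 27.6% of all genes did. At 1 Hz and at 10 Hz 0 of the 8 did, beside 14.1% and 1.64% of all genes.

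The frequencies were also set against each other in the same fit. Between 4 and 1 Hz edgeR and DESeq2 called 0 of the 8 members, with 1 (Ppp3r1, -0.21) at an unadjusted p under 0.05, and edgeR called 0% of all genes. Between 10 and 1 Hz, Nfatc3 was higher and Rcan2 and Ppp3cb were lower at 10 Hz, and 27.9% of all genes were called. Between 10 and 4 Hz, Nfatc1, Nfatc3, and Ppp3r1 were higher at 10 Hz, and 46.3% of all genes were called.

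Levels of different genes were compared per transcript length, as shares of the summed TPM of a family. Rcan1 made up 59.1% ± 4.48 of the RCAN transcripts (Rcan1, Rcan2, and Rcan3) in Control, 52.1% ± 7.60 at 1 Hz, 53.1% ± 4.74 at 4 Hz, and 56.4% ± 4.93 at 10 Hz. Ppp3ca made up 45.9% ± 1.00 of the catalytic subunit transcripts in Control, 43.7% ± 1.55 at 1 Hz, 44.2% ± 2.13 at 4 Hz, and 47.9% ± 1.22 at 10 Hz. Nfatc3 made up 64.6% ± 4.15 of the NFATc transcripts in Control, 59.5% ± 2.92 at 1 Hz, 60.6% ± 3.58 at 4 Hz, and 62.2% ± 2.63 at 10 Hz. None of these 9 differences from Control passed a two-sided exact permutation test after adjustment over the 9 (adjusted p from 0.0877 to 0.32). The smallest p this design allows is 0.0022. By mean share, Rcan1, Ppp3ca, and Nfatc3 led their families in every group.

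**Figure D4:**
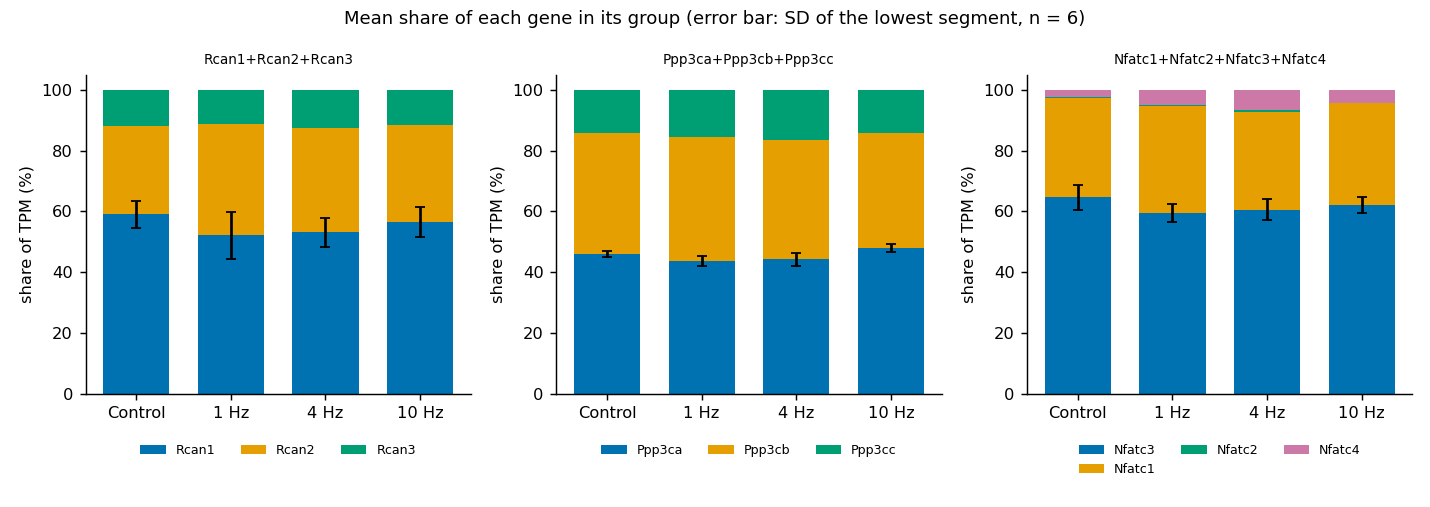
Mean share of each gene in the summed TPM of its family (vertical axis, percent, from 0) in Control, 1, 4, and 10 Hz, for the RCAN genes, the catalytic subunits, and the NFATc genes. Error bars are the SD over 6 libraries of the lowest segment, which is Rcan1, Ppp3ca, or Nfatc3. Rcan1 goes from 59.1% in Control to 52.1% at 1 Hz, and the order of the mean shares is the same in every group.

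A further 50 genes of the pathway were taken from 7 lists, and 40 of them passed the filter. At 1 Hz 8 of the 40 were upregulated and 6 downregulated, beside 19.2% and 18.1% of all genes, and at 4 Hz 14 and 10, beside 27.5% and 23.9%. These counts are close to the share of all genes. At 10 Hz edgeR called 0 of the 40, with 3 at an unadjusted p under 0.05, and DESeq2 called 2 (Atp2a2 and Lmcd1). In the other 19 libraries 12 were called at 1 Hz and 11 at 4 Hz, and of the genes called in all libraries 5 were lost at 1 Hz and 13 at 4 Hz. The remaining relatives of the members were Ppp3cc, Rcan3, Nfat5, and Ppp3r2. The third catalytic subunit Ppp3cc rose at 1 Hz (23.9 to 28.0 CPM, log2(fold change) 0.23, adjusted p = 0.048) and 4 Hz (0.26, adjusted p = 0.024), and 0 of these relatives were called at either frequency without the 5 libraries. Rcan3 had 20.8 CPM in Control and 20.0 to 21.6 CPM at the 3 frequencies. Nfat5 had 81.6 CPM in Control and 74.0, 59.9, and 89.8 CPM at 1, 4, and 10 Hz, and edgeR did not call it against Control. At 4 Hz DESeq2 called Nfat5 lower. So did the length lowess (-0.26, adjusted p = 0.011) and limma on log2(TPM + 1) (-0.94, adjusted p = 0.0040).

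Calm2 and Calm3 encode calmodulin, the calcium sensor that switches calcineurin on. The calmodulin list held 3 tested genes, and the other is not described here. The values below therefore do not stand for calmodulin transcripts as a whole. At 4 Hz Calm2 rose from 245.3 to 287.4 CPM (0.23, adjusted p = 0.0092) and Calm3 from 165.9 to 192.9 CPM (0.22, adjusted p = 0.013). Calm2 was also called higher at 1 Hz (0.27, adjusted p = 0.0038). Both calls at 4 Hz were lost without the 5 libraries (Calm2 0.18, adjusted p = 0.053, and Calm3 0.13, adjusted p = 0.16), and Calm2 stood at -0.02 at 4 Hz after the length lowess. Among inhibitors and anchors, 7 of 11 were tested, and 3 rose and 1 fell at each of 1 and 4 Hz. Fkbp1a and Ppia, the binding proteins of the drugs FK506 and cyclosporin, rose at 1 Hz by log2(fold change) of 0.25 and 0.24 and at 4 Hz by 0.21 and 0.36. Chp1, a calcineurin-like calcium-binding protein, rose at 1 Hz (0.20, adjusted p = 0.024), and Myoz2, a Z-disc protein that tethers calcineurin, rose at 4 Hz (0.37, adjusted p = 0.022). Cabin1, a calcineurin inhibitor, fell at both, at -0.34 each (adjusted p = 0.049 and 0.039). Without the 5 libraries the calls of Fkbp1a and Ppia were lost at both frequencies (0.17 and 0.10 at 1 Hz, 0.17 and 0.17 at 4 Hz), and so were those of Myoz2 at 4 Hz (0.21) and Cabin1 at 1 Hz (-0.11). After the length lowess Ppia stood at -0.01 and -0.04, and Fkbp1a at 0.16 and 0.09, of which only the value of Fkbp1a at 1 Hz was called.

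Of the kinases and carriers that act on NFAT, 8 of 9 were tested, with 2 higher and 1 lower at 1 Hz, and 1 higher and 3 lower at 4 Hz. Dyrk1b, a kinase of the family that phosphorylates NFAT, rose from 10.6 CPM in Control to 14.7 and 16.0 CPM at 1 and 4 Hz (0.47 and 0.59, adjusted p = 0.0052 and 0.00045). Csnk1a1, a casein kinase that also phosphorylates NFAT, fell from 493.2 CPM to 424.1 (-0.22, adjusted p = 0.011) and 385.5 (-0.36, adjusted p = 8.6e-05). At 4 Hz Gsk3b, the kinase that favors export of NFAT from the nucleus, fell (-0.43, adjusted p = 0.0034), and so did Dyrk2 (-0.19, adjusted p = 0.047), whose call was lost without the 5 libraries (-0.07, adjusted p = 0.45). Xpo1, the nuclear exporter, rose at 1 Hz (0.23, adjusted p = 0.019). Limma on log2(TPM + 1) kept the calls of Csnk1a1 and lost those of Dyrk1b at both frequencies (0.24 and 0.22). It also lost Gsk3b and Dyrk2 at 4 Hz (-0.41 and -0.29) and Xpo1 at 1 Hz (0.01).

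Of the other calcineurin substrates and MEF2 factors, 0 of 8 rose and 3 fell at 1 Hz, and 1 rose and 4 fell at 4 Hz. Crtc1, a coactivator of CREB that calcineurin dephosphorylates, fell from 30.8 CPM in Control to 16.5 at 1 Hz (-0.90, SE 0.122, adjusted p = 3.6e-06) and 15.1 at 4 Hz (-1.02, SE 0.123, adjusted p = 3.9e-07), and was 31.0 CPM at 10 Hz. Mef2a, a transcription factor of muscle genes, fell from 307.6 CPM to 207.2 (-0.57) and 190.1 (-0.69), and Dnm1l, the mitochondrial fission enzyme, from 122.4 to 91.1 (-0.43) and 87.6 (-0.48). Crtc1, Mef2a, and Dnm1l stayed called at both frequencies without the 5 libraries, with Crtc1 at -0.76 and -1.003. Crtc3 fell at 4 Hz (-0.54, adjusted p = 0.0020) and Mef2c rose at 4 Hz (0.30, adjusted p = 0.039), a call that was lost without the 5 libraries (0.23, adjusted p = 0.10).

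Slow-fiber genes are among the known targets of calcineurin in muscle, and all 9 on the list were tested. At 1 Hz edgeR called 0 of them, with 1 at an unadjusted p under 0.05 and 1 called by DESeq2. At 4 Hz 5 of the 9 rose, where 27.5% of all genes were called higher. The median log2(fold change) of the list was 0.31 beside 0.06 over all genes. Tnnc1 went from 895.7 to 1228 CPM (0.46, adjusted p = 0.014), Tnni1 from 1055 to 1433 CPM (0.44, adjusted p = 0.015), and Casq2 from 724.3 to 871.2 CPM (0.27, adjusted p = 0.016). Myl3 (0.64) and the slow myosin Myh7 (0.29) also rose. With limma on log2(TPM + 1) all 5 of these calls were lost, and the length lowess lost those of Myl3, Tnni1, and Tnnc1. Limma on that scale also called Atp2a2 lower, at -0.39 at 1 Hz and -0.35 at 4 Hz (adjusted p = 0.0075 for each). The median over all genes there was -0.14 and -0.21. Without the 5 libraries 0 of the 9 were called at 4 Hz, with 3 at an unadjusted p under 0.05 and values from -0.08 to 0.57, and 2 were called lower at 1 Hz (Tnnt1, -0.33, and Atp2a2, -0.23). At 10 Hz edgeR called 0, with 1 at an unadjusted p under 0.05.

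Of the cytokine and immune targets of NFAT, 2 of 6 were tested, and they moved in opposite directions. Ptgs2, the inducible cyclooxygenase, rose from 255.7 CPM in Control to 400.2 and 378.3 CPM at 1 and 4 Hz (0.65 and 0.56, adjusted p = 0.0053 and 0.0087). Lif, a cytokine released by contracting muscle, fell from 9.04 CPM to 5.64 and 4.50 CPM (-0.72 and -1.02, adjusted p = 0.012 and 0.00067). In the other 19 libraries Lif kept its call at 4 Hz (-1.08) and lost it at 1 Hz (-0.50, adjusted p = 0.10), and Ptgs2 kept both. With limma on log2(TPM + 1), Lif kept both calls and Ptgs2 lost both (0.41 and 0.24, adjusted p = 0.12 and 0.32). Il2, Il4, Tnf, and Fasl did not pass the filter, with mean levels of at most 0.620 CPM in any group.

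**Figure D5:**
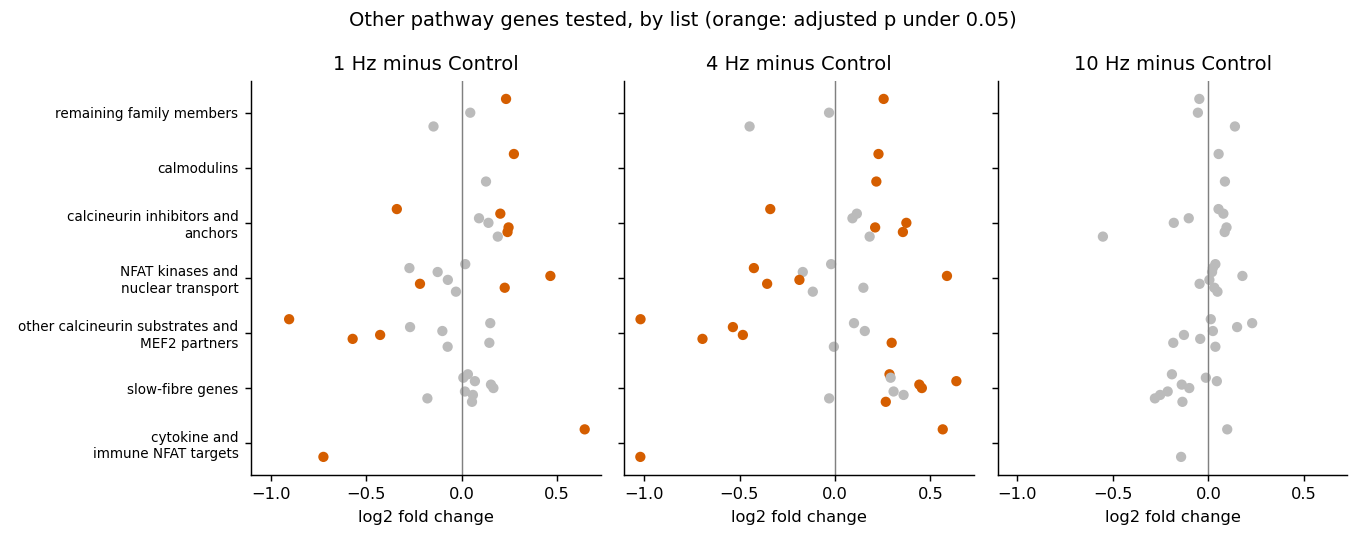
Change from Control (horizontal axes, log2(fold change)) of 39 of the 40 tested genes of the 7 further lists (vertical axis), one panel per frequency. Each point is a gene, and orange points have an adjusted p under 0.05. There are 14 orange points at 1 Hz, 23 at 4 Hz, and 0 at 10 Hz, and the lowest value is that of Crtc1 at 4 Hz (-1.02), together with Lif.

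For the member of each role with the smallest adjusted p, the 3 genes most like it were found by Spearman's rho of log2 CPM over the 24 libraries, as a description. The libraries share the same groups, depths, and length slopes, and like patterns can come from these. Rcan2 was most like Ahr (rho 0.91), Tbc1d32 (0.90), and Sema3c (0.90), with Pearson r within groups of 0.71, 0.60, and 0.72. Nfatc3 was most like Kdm2a (0.99), Ndst1 (0.98), and Camsap1 (0.97), with r within groups of 0.97, 0.94, and 0.93. Ppp3r1 was most like Utp18 (0.94), Rab12 (0.93), and Rbm17 (0.92), with r within groups of 0.82, 0.80, and 0.56.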

How the data were processed

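RNA of the 24 tissues was sequenced by the authors as 50-base read pairs from directional libraries after poly(A) selection. Per the labels, low-input samples were ribodepleted instead, and which ones is not given. RNA without poly(A) was measured only as the summed share of Rn7sk, Rmrp, and Rpph1. It had a mean of 5.97 ppm in Control and 6.15 ppm in the 10 Hz group. The 1 and 4 Hz groups had higher means, 18.9 and 20.4 ppm, with single libraries from 6.17 to 52.7 ppm. The mitochondrial share was highest in 4 Hz replicate 3 (7.89%). This RNA thus differed between the same groups as the calls did, and its part in them was not tested. The authors processed the reads with nf-core/rnaseq and the Ensembl annotation of GRCm39, and their methods also name BWA-MEM. The estimated counts were deposited per gene as salmon gave them, not normalized. The TPM values were deposited as the authors' pipeline gave them, divided by transcript length and scaled to a fixed sum per library, so they do not carry depth. Of the estimated counts, 6.15% were not whole numbers.

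Counts were rounded and scaled by TMM in edgeR 4.0.16 (R 4.3.3), after filterByExpr removed low genes (count under 10, total under 15). A robust quasi-likelihood F test was run in 1 fit of 24 libraries with a mean for each of the 4 groups, and p-values were adjusted over all 13315 tested genes. The biological coefficient of variation was 14.8%, which with 8052369 to 18159144 counts per library sets the precision. The main edgeR fit, DESeq2, and limma on log2(TPM + 1) were tested on simulated data for 1 Hz against Control. The other settings were not tested in this way. The simulated libraries had no length slope of their own, so the simulation cannot show how these fits behave under such a slope. Shares of TPM were compared by exact permutation over 924 arrangements. No 2 libraries held identical values, and the counts of each library lay closest to its own TPM values. Gene positions come from GENCODE M39 and promoter windows from RefSeq.

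Alternatives were DESeq2 1.42.0, other size factors, a stricter filter (6 libraries with 50 counts) or none, each pair of groups alone, a replicate block, limma 3.58.1 on log2(TPM + 1) and log2(TPM + 0.1) where 6 libraries reached 1 TPM, length corrections, a fold threshold of 0.5 on the log2 scale, and leaving out each library. The alternative without the 5 libraries of steep length slope was chosen after seeing the data. The replicate number names samples and does not pair them. Named genes are the 9 members, from each list up to 3 genes per direction with the smallest adjusted p among those called against Control, and 3 genes of most like pattern for 1 member per role. Genes named outside this rule (those below the filter, uncalled relatives, and Tnnt1, Atp2a2, and Lmcd1) were named after their values were seen. The members and lists were chosen with earlier results of these data known. The counts of the lists include 1 further gene that is not reported here. The 30-min experiment was not analysed here.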

Additional observations from a re-analysis of the deposited data

Results flagged for a closer look

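In 3 of 36 sets of 6 libraries tested, 1 library lay far from the other 5 for a member, by Dixon's test at its critical value. Chance gives about 1 in 20. The lowest Control library for Nfatc3, replicate 1, had 60.6 CPM where the next lowest had 71.5 CPM, and it also had the lowest length slope of the controls (-0.0663). The highest 4 Hz library for Nfatc4, replicate 4, had 3.68 CPM where the next had 2.03 CPM, and it is 1 of the 5 libraries of steep length slope. The highest 10 Hz library for Ppp3r1, replicate 1, had 271.9 CPM where the next had 246.9 CPM. Leaving out any of these 3 libraries changed no call of the gene against Control, and their part in the other results was not tested.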

How the results depend on the processing

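The calls of members against Control held under other size factors, DESeq2, no filter, the length lowess, each pair of groups alone, and every library left out, and DESeq2 added Nfatc2 at 4 Hz. The strict filter removed Nfatc4, the length offset and both TPM scales lost its calls, the TPM scales also lost those of Rcan2 and added Ppp3r1 at 1 Hz and Rcan1, Ppp3ca, and Ppp3cb at 4 Hz, and leaving out the 5 libraries of steep length slope lost Nfatc1 at 4 Hz. The fold threshold left 3 members called at 4 Hz and 1 for 10 Hz against 1 Hz, and the length lowess gave 5 for 10 Hz against 4 Hz. Other pathway genes called were 8 (1 Hz) and 14 (4 Hz) with no filter, 6 and 12 on either TPM scale, 11 at 4 Hz without the 5 libraries of steep slope, and at 10 Hz 2 with DESeq2 and 1 with each pair of groups alone. The cause was not tested. Without 1 library, members called for 10 Hz against 1 Hz ranged from 1 (without 1 Hz replicate 3) to 4, and other pathway genes from 9 (without Control replicate 4) to 16 at 1 Hz and from 15 (without Control replicate 3) to 23 at 4 Hz. The share of Rcan1 at 1 Hz passed without the 5 libraries (-11.35 points, exact permutation, adjusted p = 0.043). In that setting the adjusted p of the Ppp3ca share at 10 Hz was 0.049 by the same test, in place of 0.088. None of the 5 libraries is in Control or 10 Hz, so its difference stayed at 2.04 points. Only the adjustment over the share tests moved. With 1 library left out, the Ppp3ca share differed by -2.69 to -1.81 points at 1 Hz and by 1.68 to 2.44 at 10 Hz, and it passed at 1 Hz without 1 Hz replicate 5 and at 10 Hz without 10 Hz replicate 2.

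Signs of members turned only for values that were not called in the fit of all libraries. Of the other pathway genes called (14 at 1 Hz and 24 at 4 Hz), 0 turned without the 5 libraries. The length lowess lost 2 and 10, with turned signs for Ppia at both frequencies (-0.01 and -0.04) and Calm2 at 4 Hz (-0.02). Limma on log2(TPM + 1) lost 9 and 17, with turned signs for Ppp3cc (-0.00032 and -0.075) and Fkbp1a (-0.01 and -0.10) at both, Chp1 at 1 Hz (-0.16), and Calm2, Calm3, and Casq2 at 4 Hz (-0.03, -0.12, and -0.04). On log2(TPM + 1) and log2(TPM + 0.1), in that order, Ppp3ca was -0.19 and -0.19 at 1 Hz, Ppp3cb -0.089 and -0.090 at 1 Hz and -0.27 and -0.28 at 4 Hz, and Nfatc3 -0.0048 and -0.0080 at 10 Hz. For 10 Hz minus 1 Hz Rcan1 was 0.16 and 0.17, Nfatc4 0.16 and 0.25, and Ppp3ca 0.19 and 0.19, and for 10 Hz minus 4 Hz Rcan1 was 0.28 and 0.29, Rcan2 0.10 and 0.10, Nfatc4 0.10 and 0.15, and Ppp3cb 0.14 and 0.14. Without the 5 libraries Ppp3ca was 0.045 at 4 Hz, 4 Hz minus 1 Hz was 0.022 for Rcan1, 0.0080 for Ppp3ca, and 0.023 for Ppp3cb, 10 Hz minus 1 Hz was 0.12 for Rcan1, 0.11 for Nfatc4, and 0.012 for Ppp3ca, and 10 Hz minus 4 Hz was 0.10 for Rcan1 and 0.086 for Nfatc4. Upper-quartile factors gave 0.0099 for Ppp3ca at 4 Hz and 0.0042 for Rcan1 at 4 Hz minus 1 Hz. The length lowess gave 0.082 and -0.014 for Ppp3ca at 4 Hz and at 10 Hz minus 4 Hz. The length offset gave 0.18 for Nfatc4 and 0.0081 for Ppp3ca at 10 Hz minus 1 Hz and 0.017 for Rcan1 at 10 Hz minus 4 Hz. No filter gave Rcan1 0.0039 for 10 Hz minus 1 Hz and 0.022 for 10 Hz minus 4 Hz, where DESeq2 size factors gave 0.011, DESeq2 0.017, and the pair of groups alone 0.014. With 1 library left out, Rcan1 ranged from -0.16 to 0.054 at 1 Hz, -0.12 to 0.046 at 4 Hz, -0.15 to 0.036 at 10 Hz, -0.064 to 0.092 for 4 Hz minus 1 Hz, -0.10 to 0.10 for 10 Hz minus 1 Hz, and -0.093 to 0.066 for 10 Hz minus 4 Hz. Nfatc3 at 10 Hz ranged from -0.064 to 0.092, and Ppp3cb at 4 Hz from -0.0076 to 0.087. Nfatc4 ranged from -0.065 to 0.32 for 4 Hz minus 1 Hz, -0.17 to 0.13 for 10 Hz minus 1 Hz, and -0.34 to 0.041 for 10 Hz minus 4 Hz, and Ppp3ca from -0.073 to 0.034 for 10 Hz minus 1 Hz.

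With the replicate number as a block, 3 members were called at 1 Hz and 5 at 4 Hz, the same numbers as without it, and Rcan2 was at 0.54 and 0.43. The numbers do not pair the samples: deviations of same-numbered libraries correlated at -0.33 to 0.24 (median -0.02) over 36 pairs, with 3 over 0.1. Depth limits Nfatc2 (0 to 7 counts) and Nfatc4 (8 to 45 counts).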
